A study of Mus musculus with 7 samples.

Results

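The Klf and Egr immediate-early genes considered here are 9 mouse genes: Klf2, Klf4, Klf6, Egr1, Egr2, Egr3, Ier2, Ier3 and Zfp36. JUNB is one of the proteins that pair up to form AP-1, and its places on the genome were listed as peaks in 4 CUT&RUN libraries, a method in which a nuclease tethered to an antibody releases the DNA around the bound protein. Peaks from any of the lists sharing 1 bp or more were merged to a region, and each region was given to the protein-coding gene with the nearest end, start or finish, within 100 kb of the region's summit. The 9 genes received 31 of 12655 regions in all. Klf6 alone received 19 of them, and Egr3 received none.

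The libraries came from iMGT-Myh6-eGFP-MEF cells, a line of mouse embryonic fibroblasts with doxycycline-inducible Mef2c, Gata4 and Tbx5 (MGT) and an eGFP reporter under Myh6, a cardiomyocyte gene. The 2 siRNA groups were compared on day 1 after MGT induction, both in cells given doxycycline at 1 µg/mL: siChst7 (2 JUNB libraries), an siRNA against Chst7, which encodes a chondroitin sulfotransferase, and siControl (2 JUNB libraries). Of 7 samples, the 3 IgG libraries were not analysed here. The transfection protocol mentions siJunb, siH1f0 and siControl but no siChst7, so the groups rest on the sample titles and treatment tags.

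Immediate-early genes are switched on within minutes by serum, growth factors and stress, without new protein synthesis, largely through serum response factor bound at CArG boxes and through AP-1 and CREB-type factors. The products of the genes in this set then act on later genes: KLF2, KLF4 and KLF6 are zinc finger transcription factors of GC-rich and CACCC elements, and EGR1, EGR2 and EGR3 are zinc finger factors of GC-rich sites. IER2 and IER3 are small immediate-early proteins, IER3 being known for effects on cell survival, and ZFP36 (tristetraprolin) binds AU-rich mRNAs and promotes their decay. Junb is itself an immediate-early gene, and in fibroblasts the whole class responds to serum. No expression was measured in these files, so the values below are positions and peak statistics, not gene activity.

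RefSeq promoter sequences (GRCm38.p6, the assembly of mm10; 250 bases before to 50 after a start site) were at hand for 6 of the 9 genes, Klf2, Klf4, Klf6, Egr2, Ier3 and Zfp36, in 10 windows. Egr1, Egr3 and Ier2 have no entry. Both Egr2 windows below are shown because JUNB peaks of single lists lay over parts of them, and the capitals mark a CArG box in each, the element that serum response factor binds.

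Egr2 window chr10:67537316-67537615, plus strand: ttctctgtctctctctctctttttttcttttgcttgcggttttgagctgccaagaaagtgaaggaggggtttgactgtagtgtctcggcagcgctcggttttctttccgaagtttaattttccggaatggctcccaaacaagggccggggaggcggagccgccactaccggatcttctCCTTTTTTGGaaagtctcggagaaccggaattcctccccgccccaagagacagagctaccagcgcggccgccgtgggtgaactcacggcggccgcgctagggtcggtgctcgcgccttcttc
Egr2 window chr10:67537619-67537918, plus strand: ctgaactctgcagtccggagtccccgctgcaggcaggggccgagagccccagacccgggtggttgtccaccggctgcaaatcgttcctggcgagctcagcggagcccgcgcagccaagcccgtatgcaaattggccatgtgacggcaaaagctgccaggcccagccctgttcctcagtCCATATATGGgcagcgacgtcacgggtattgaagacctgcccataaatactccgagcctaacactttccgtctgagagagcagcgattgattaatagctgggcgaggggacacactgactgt

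The Zfp36 and Klf6 windows are shown because these genes had regions of all 4 lists close by and none over the window itself. In the Zfp36 window the capitals mark, from left to right, an EGR element (GCGGGGGCG), a KLF element (GGGCGTGG, here on the opposite strand) and a CArG box. The Klf6 window held no match to any motif searched. The fifth sequence is the only stretch under a region of all 4 lists of these genes that the promoter table covers: it is the 196 bases of the window of a long noncoding RNA gene, Gm35413, that lie under the region 57.8 kb upstream of Klf6. It held no match either, and most of that region, its summit included, lies outside it.

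Zfp36 window chr7:28379179-28379478, minus strand: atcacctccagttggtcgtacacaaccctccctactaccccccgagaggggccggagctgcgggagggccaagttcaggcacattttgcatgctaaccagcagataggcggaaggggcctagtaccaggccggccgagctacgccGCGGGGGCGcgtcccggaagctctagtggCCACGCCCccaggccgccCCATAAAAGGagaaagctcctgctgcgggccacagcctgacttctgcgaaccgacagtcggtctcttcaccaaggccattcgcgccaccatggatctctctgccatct
Klf6 window chr13:5861239-5861538, plus strand: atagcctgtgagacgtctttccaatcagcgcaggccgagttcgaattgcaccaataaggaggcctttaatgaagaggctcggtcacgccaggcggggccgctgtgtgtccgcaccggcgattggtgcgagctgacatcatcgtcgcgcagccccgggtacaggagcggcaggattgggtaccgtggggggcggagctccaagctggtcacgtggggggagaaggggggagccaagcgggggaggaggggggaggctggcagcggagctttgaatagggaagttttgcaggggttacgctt
Gm35413 window under the Klf6 region, chr13:5803210-5803405, minus strand: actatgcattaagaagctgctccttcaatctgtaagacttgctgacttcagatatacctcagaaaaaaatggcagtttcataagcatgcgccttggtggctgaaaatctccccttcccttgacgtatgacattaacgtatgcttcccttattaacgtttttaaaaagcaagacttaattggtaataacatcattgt

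Motifs were searched on both strands as AP-1 (TGANTCA), CRE (TGACGTCA), EGR (GCGTGGGCG and GCGGGGGCG), KLF (GGGTGTGG and GGGCGTGG) and the CArG box. No matches to different motifs overlapped each other in the windows of the member genes. Of all 32851 windows in the table, 7.81% held TGANTCA, 1.79% TGACGTCA, 0.612% GCGTGGGCG, 2.91% GCGGGGGCG, 3.56% GGGTGTGG, 5.33% GGGCGTGG and 1.63% a CArG box. TGANTCA stood in 0 of the 10 windows of the member genes, of which 4, all of Egr2, overlapped regions, each of a single list. Of the 1333 windows in the table that overlapped a region of any list, 17.6% held it, and of the 289 that overlapped a region of all 4 lists, 23.9%. A CArG box stood in 5 of the 10, which were the Zfp36 window and 4 of the 5 Egr2 windows; 3 of these 4 overlap and share 1 box. GCGGGGGCG stood once each in the windows of Klf2, Klf4 and Zfp36. These are matches of letters and not measured binding, and the bases under the other regions were not used here.

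The peak lists differed in length. They held 10163 and 4735 peaks in siChst7 and 6469 and 5827 in siControl, with median fold enrichments of 6.61 to 6.80 and a lowest −log10 q of 2.00 to 2.02. Fold enrichment and q are the authors' own values for a peak and serve to describe and rank peaks within a list, with a percentile that gives the rank of a peak's fold within that list, 100 being the highest. Lists are not on one scale, so values of several lists given side by side are a description and no comparison of libraries. Read depth is not known from peak lists, so a region missing from a list may hold signal under that list's threshold. A region of all 4 lists was given to 3 of 8 fibroblast markers, 2 of 5 endothelial, 0 of 5 macrophage and 0 of 5 cardiomyocyte markers, against 8.32% of all protein-coding genes. These counts do not check the labelled cell type, since fibroblast and endothelial markers had like shares and no expression was measured. Titles mark the libraries as biological replicates, but separate cultures are not described. The p-values here only rank the group difference among all splits of these 4 libraries into groups of 2, and the libraries may scatter for technical reasons.

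Of the 31 regions, 7 were in all 4 lists (called common here), 4 in 3 lists, 3 in 2 lists and 17 in 1 list. The common share was 22.6%, against 22.0% of all regions, and the single-list share was 54.8%, against 46.7%. Both shares lay near the background. Regions of 3 lists made up 12.9%, against 13.3% of all regions, and the 3 regions of 2 lists made up 9.68%, against 17.9%. Counted by gene, 3 of the 9 genes owned a common region, Klf6, Ier3 and Zfp36, against 8.32% of all 21900 protein-coding genes. A region of any list was given to 8 of the 9, against 25.1% of genes. These gene counts take no account of how much genome lies nearest to each gene. That length was 208.9 kb for Klf6 and 7.5 kb for Zfp36, against a median of 46.4 kb over all genes. Of the 17 regions of a single list, 11 (64.7%) came from siChst7 replicate 1, the longest list, and that list also held 62.4% of all single-list regions. Single-list regions had a median width of 268 bp and a median fold percentile of 30.4, beside 278 bp and 26.3 for all single-list regions.

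**Figure D1:**
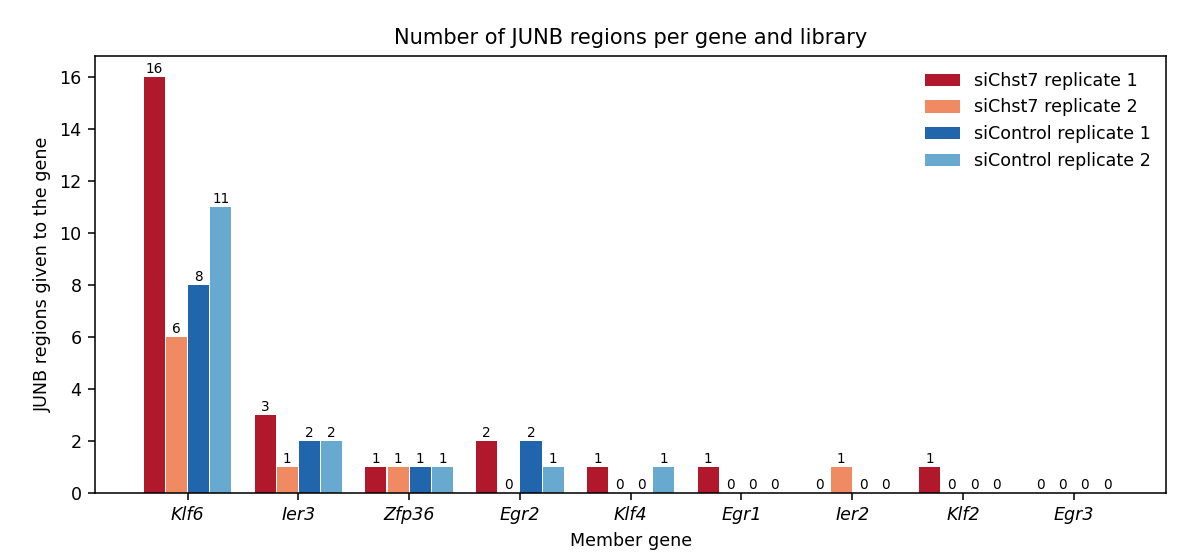
Number of JUNB regions (y axis) given to each of the 9 genes (x axis) in each library, siChst7 bars in red shades and siControl bars in blue shades. Klf6 has 16 and 6 regions in siChst7 and 8 and 11 in siControl, and Egr3 has 0 in all.

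Klf6, which encodes a factor that fibroblasts induce on serum stimulation and injury, had the most regions of the set. Its 19 regions were the most that any protein-coding gene received, a number that 2 genes reached, Klf6 among them. The gene (chr13:5861489-5870393, plus strand) lies in a gene-poor stretch, with the next protein-coding gene, Pitrm1, 634.9 kb or more from each of the 19 summits, so that 208.9 kb of genome were nearest to it, against a median of 46.4 kb per gene. Klf6 had 9.10 regions per 100 kb of this stretch, against 0.649 over all genes, and 1.98% of genes were at least as dense. The gene held 31.2% of the genome nearest to the 9 genes and 61.3% of their regions.

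By library, Klf6 had 16 and 6 regions in siChst7 and 8 and 11 in siControl. The siChst7 libraries were the highest and the lowest of the 4, so the groups overlapped. Upstream of the start site lay 11 regions, 4 of them common. Inside the gene lay 4, none common, and past its end lay 4, 1 of them common. The common regions spanned 67.7 kb from the outermost upstream summit to the one past the gene's end. Between 10 and 40 kb upstream, a stretch chosen after the values were seen, 9 regions were listed, 3 of them common.

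**Figure D2:**
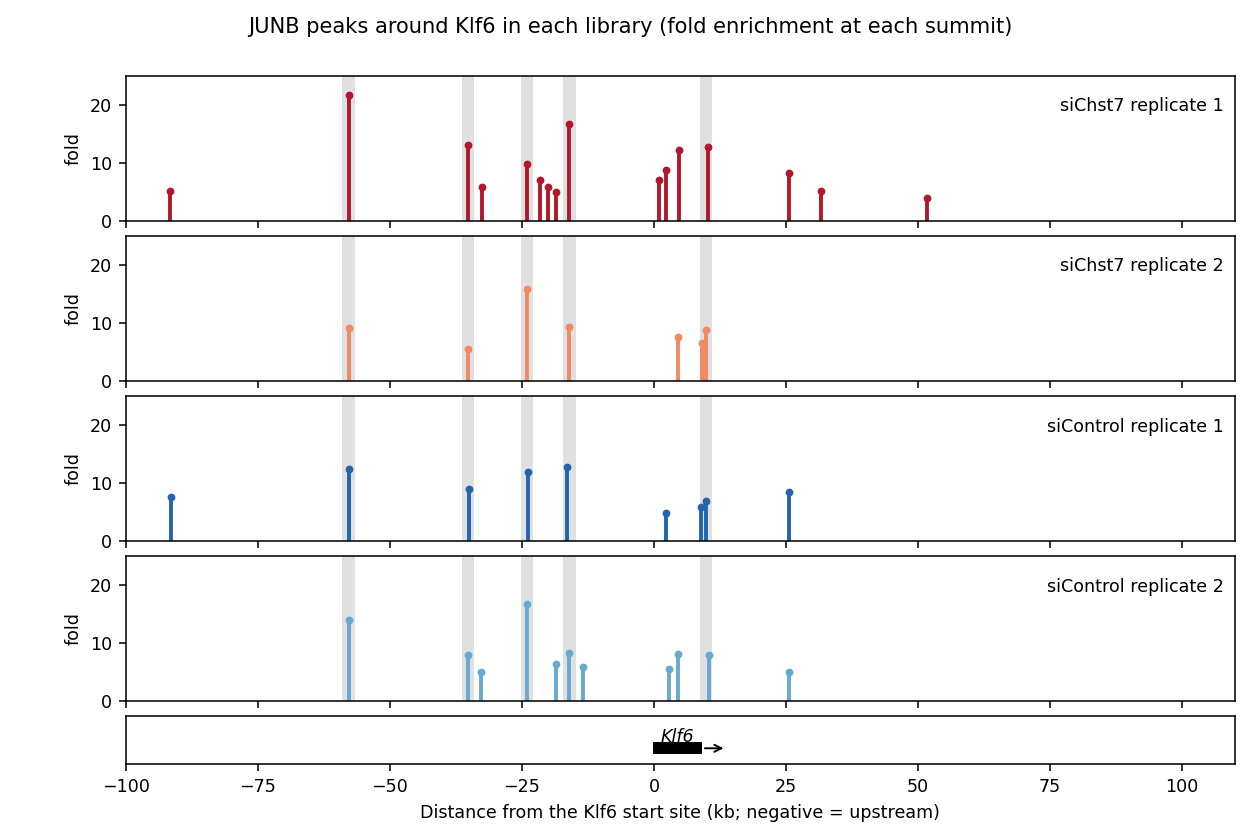
JUNB peaks around Klf6 by library, siChst7 above siControl, with the distance of the summit from the Klf6 start site in kb on the x axis and the authors' fold enrichment of each peak as bar height, and grey bands at the 5 common regions. The bands at 57.8, 35.2, 24.0 and 16.0 kb upstream and just past the gene's end hold a peak in every library. No region between or beyond them does, and 2 of those regions hold a peak in 3 libraries.

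The outermost common region, 57.8 kb upstream (chr13:5803210-5804191), lay at percentile 78.9 or above in every list. Its folds were 21.6 and 9.13 in siChst7 and 12.3 and 14.0 in siControl, at percentiles 98.2 and 78.9 in siChst7 and 90.3 and 94.6 in siControl. The summits of the 4 lists fell within 73 bp of each other, the tightest of the 7 common regions, beside a median span of 186 bp over all common regions. It overlaps no annotated gene, and its left edge covers most of the promoter window of Gm35413 printed above.

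The region 24.0 kb upstream (chr13:5836745-5838265) was 1521 bp wide, wider than 89.2% of common regions. Its folds were 9.74 and 15.8 in siChst7 and 11.8 and 16.7 in siControl, with −log10 q between 21.8 and 32.9. Its percentiles were 79.5 and 96.6 in siChst7 and 88.7 and 97.1 in siControl. The region 16.0 kb upstream (chr13:5844506-5846247) had folds of 16.6 and 9.32 in siChst7 and 12.7 and 8.30 in siControl. Its percentiles were 95.6 and 79.5 in siChst7 and 91.0 and 73.9 in siControl, so this region too was in the upper part of every list.

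The region 35.2 kb upstream (chr13:5825795-5826799) had folds of 13.0 and 5.48 in siChst7 and 8.87 and 8.01 in siControl. It was the common region with the lowest place in any list, at percentile 24.0 in siChst7 replicate 2, where it was 328 bp wide, against 90.3 and 1005 bp in siChst7 replicate 1. The fifth common region ran across the end of the gene (chr13:5869817-5872076), and its median summit lay 1.0 kb past that end. It was 2260 bp wide and wider than 98.1% of common regions, and a single peak of siChst7 replicate 1 spanned all of it, where siChst7 replicate 2 and siControl replicate 1 each listed 2 peaks. Its best peaks had folds of 12.7 and 8.77 in siChst7 and 6.90 and 7.97 in siControl. No test of these folds was made, since the lists are not on one scale.

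With 50% reciprocal overlap in place of 1 bp, the Klf6 regions at 57.8, 24.0 and 16.0 kb stayed whole in all 4 lists, and the other 2 common regions of Klf6 broke up. With windows of 100 bp on each side of the summit, those at 57.8 and 35.2 kb stayed. The region at 57.8 kb was the only one of the 7 common regions in all 4 lists under both settings.

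Klf6 had 5 further regions in 2 or 3 lists. A region inside the gene, 4.61 kb past the start site (chr13:5865996-5866662), had folds of 12.1 and 7.61 in siChst7 and 8.16 in siControl replicate 2, and was not listed in siControl replicate 1. A region 16.7 kb past the end (chr13:5886867-5887496) had 8.14 in siChst7 replicate 1 and 8.49 and 4.97 in siControl, and was not listed in siChst7 replicate 2. The 3 regions of 2 lists, at 91.5 and 18.5 kb upstream and 2.33 kb inside, each paired siChst7 replicate 1 with a siControl library. The 9 single-list regions came from siChst7 replicate 1 (6) and siControl replicate 2 (3), and their folds ran from 3.89 to 7.05. At the 100 kb limit, the region 91.5 kb upstream was the last one inside, and the first ones outside lay 137.1, 137.8 and 139.4 kb from the gene, in 3, 1 and 3 lists. Beyond the limit 13 more regions had Klf6 as nearest gene, out to 612.6 kb, 4 of them common.

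Klf4 and Klf2 had regions in single lists only. Klf4, known as a pluripotency factor (chr4:55527137-55532475, minus strand), also lies in a gene-poor stretch, with 172.8 kb nearest to it, but received 2 regions. A region 0.87 kb upstream of its start, overlapping the gene Gm12506, had a fold of 4.35 in siControl replicate 2, at percentile 5.8. A region 0.7 kb past its end had a fold of 6.92 in siChst7 replicate 1, at percentile 54.3. Neither was listed in the other 3 libraries, and the nearest common region lay 841.7 kb from the gene. Beyond 100 kb, 6 further regions had Klf4 as nearest gene, the first at 198.2 kb, none of them common. Klf2, a factor of endothelial and lymphoid quiescence (chr8:72319062-72321654), had 1 region, 2.1 kb past its end, with a fold of 4.04 at percentile 2.2 in siChst7 replicate 1. The nearest common region to Klf2 lay 249.3 kb away.

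**Figure D3:**
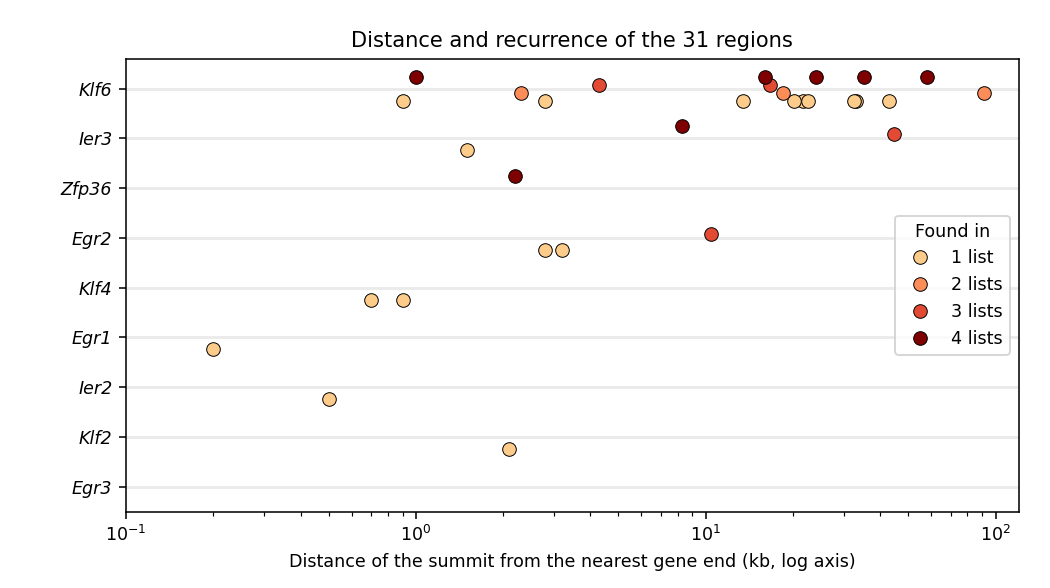
Distance of each summit from the nearest end of its gene (x axis, kb, log axis) for the 31 regions, by gene from top to bottom, coloured by the number of lists that held the region. The closest common region, at Klf6, lies just within 1 kb, and the regions of Klf4, Egr1, Ier2 and Klf2 stand in 1 list each.

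Egr2, a factor best known from hindbrain and Schwann cell development, had the most regions of the Egr genes, with 3. A region 10.44 kb upstream of the gene's annotated start (chr10:67523759-67524583), overlapping the noncoding gene Gm32255, had a fold of 9.23 in siChst7 replicate 1 and 7.71 and 6.84 in siControl. It was not listed in siChst7 replicate 2, and the 3 summits fell within 77 bp. Inside the gene, 2 single-list peaks lay beside the later start sites whose windows are printed above. The peak of siControl replicate 1 (chr10:67537103-67537357, fold 5.80) covered the first 42 bases of the first window and ended 136 bases before its CArG box. The peak of siChst7 replicate 1 (chr10:67537497-67537786, fold 8.58) covered 7 of the 10 bases of that box and ended 10 bases before the box of the second window. The 2 peaks did not overlap each other. Each was in 1 list, so neither position is replicated within a group.

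Egr1, the best studied growth factor response gene of the family, had 1 region, which lay 0.2 kb from a gene end on chromosome 18 (34860861 to 34861107). Its fold was 8.65 at percentile 73.3 in siChst7 replicate 1, and the other 3 lists did not hold it. This was the highest percentile of any single-list region of the set, and the nearest common region lay 200.8 kb away. Egr3, a relative induced alongside Egr1, had no region of its own. The common region nearest to it lay 13.8 kb from its end and 3.7 kb from Bin3, to which it was therefore given (chr14:70095733-70096922). Its folds were 16.7 and 12.0 in siChst7 and 16.1 and 19.9 in siControl. A further common region lay 53.4 kb from Egr3, and was likewise given to Bin3. The count of 0 for Egr3 is one of assigned regions and does not mean that no region lay within 100 kb. Assignment to the nearest gene body gave Egr3 0 common regions by construction, since no region lay inside the gene.

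Ier3 had 3 regions, all upstream of the gene (chr17:35821713-35822911, plus strand). The common one, 8.33 kb upstream (chr17:35812928-35813905), had folds of 6.82 and 6.87 in siChst7 and 9.66 and 6.83 in siControl. It stood near the middle of 3 lists, at percentiles 52.2 and 52.0 in siChst7 and 55.1 in siControl replicate 2, and at 79.8 in siControl replicate 1. Its summits spread over 597 bp, the widest of the 7, and it fell apart under 50% reciprocal overlap and with summit windows. A region 44.64 kb upstream (chr17:35776631-35777328), overlapping the noncoding genes 4833427F10Rik and Gm32409, had 9.66 in siChst7 replicate 1 and 5.80 and 8.70 in siControl and was not listed in siChst7 replicate 2. The third, 1.51 kb upstream, had a fold of 4.08 in siChst7 replicate 1 alone. The next gene, Flot1, had its nearest end 9.9 kb from the common summit.

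Zfp36 had 1 region, and it was common. It lay 2.23 kb upstream of the start site (chr7:28380880-28382093), beyond the promoter window printed above and 3.8 kb from the next gene, Med29. Its folds were 8.16 and 9.46 in siChst7 and 12.5 and 6.63 in siControl, at percentiles 69.7 and 81.2 in siChst7 and 90.6 and 50.8 in siControl. The 4 summits fell within 194 bp, and the region stayed in all 4 lists with summit windows but not with 50% reciprocal overlap. Zfp36 had only 7.5 kb of genome nearest to it, and at 13.3 regions per 100 kb it was denser than Klf6 on the strength of this single region. Ier2 (chr8:84661331-84662852) had 1 region, 0.5 kb from its end, with a fold of 5.05 at percentile 17.2 in siChst7 replicate 2 alone. It was the only single-list region from that library.

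**Figure D4:**
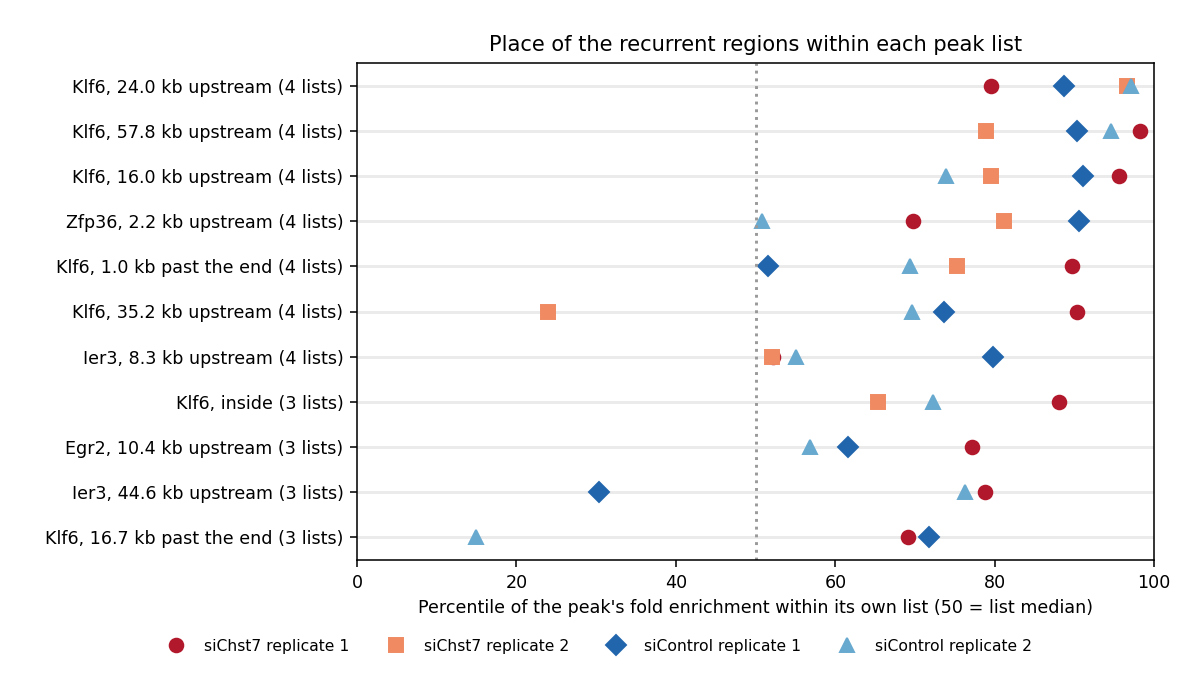
Percentile of the fold enrichment within its own list (x axis) for the 11 regions of 3 or 4 lists, 1 row per region, with a marker for each library that held it. The Klf6 regions 57.8, 24.0 and 16.0 kb upstream lie at percentile 73.9 or above in every list, and the dotted line marks the list median.

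The common regions of these genes had middling to high mean fold percentiles, and their widths lay above the median of common regions. Their mean fold percentile over the 4 lists ran from 59.8 at Ier3 to 90.5 at Klf6, with a median of 73.1, beside 69.3 for all 2785 common regions. By this value they ranged from above 34.8% of common regions, at Ier3, to above 85.7%, at Klf6. Their widths ran from 978 to 2260 bp with a median of 1214 bp, beside 925 bp. All 7 were wider than that median. The narrowest, at Ier3, was wider than 56.2% of common regions. Joined width grows with any 1 broad peak, as the region at the end of Klf6 shows. Within 1 kb of a gene end lay 6 of the 31 regions, 1 of them common, against 12.1% of all regions.

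**Figure D5:**
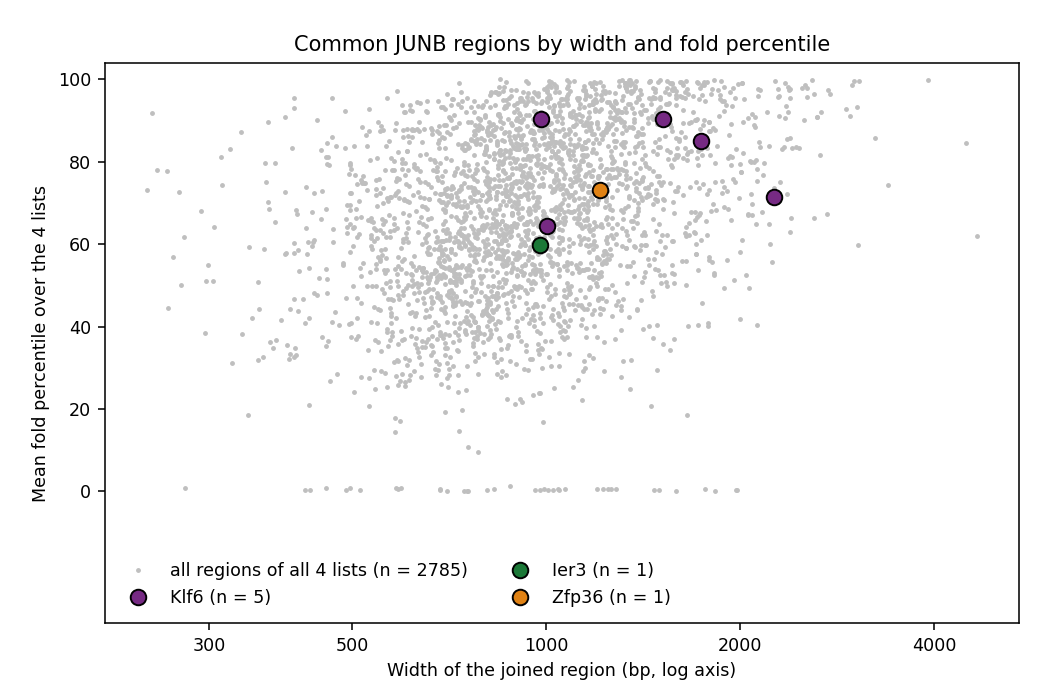
Width of each common region (x axis, bp, log axis) and its mean fold percentile over the 4 lists (y axis), with all 2785 common regions in grey and the 7 of the member genes in colour. The 7 lie between percentiles 59.8 and 90.5 and between 978 and 2260 bp.

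By presence in the lists, none of the 31 regions separated the siRNA groups. Regions of both siChst7 lists and neither siControl list numbered 0, and so did regions of both siControl lists and neither siChst7 list. Over all regions these classes held 3.88% and 1.60%, which would amount to 1.20 and 0.497 of 31 regions, so counts of 0 lie near the background. Of the 4 regions of 3 lists, 3 lacked siChst7 replicate 2, the shortest list, and 1 lacked siControl replicate 1. Over all regions of 3 lists, 53.3% lacked siChst7 replicate 2.

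The genes had 25 and 10 peaks in siChst7 and 14 and 16 in siControl, a mean of 17.5 ± 10.6 against 15.0 ± 1.41 (SD, n = 2 each). The difference, siChst7 minus siControl, was 2.5 peaks, smaller than the SD of the siChst7 libraries (two-sided exact permutation p = 1.0, with 0.333 the smallest p that 4 libraries allow). As a share of each list, the peaks made up 0.246% (95% exact interval 0.159 to 0.363) and 0.211% (0.101 to 0.388) in siChst7, and 0.216% (0.118 to 0.363) and 0.275% (0.157 to 0.446) in siControl. The intervals cover counting error only. The mean share was 0.229% ± 0.0246 in siChst7 against 0.246% ± 0.0411 in siControl (SD, n = 2 each), a difference of −0.0169 percentage points (two-sided exact permutation p = 0.667). The direction of the count turned without siChst7 replicate 1, to −5.0 peaks, and at equal list length, to −0.5 peaks. That of the share turned without siChst7 replicate 2 or siControl replicate 2, to 0.0005 and 0.0122 points.

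Relatives of these genes were looked up in 4 lists, and 8.32% of all protein-coding genes owned a common region. Of 14 other Klf genes, 2 did: Klf10, a factor induced by TGF-beta, with a region 0.6 kb from a gene end (folds of 6.86 and 5.05 in siChst7 and 5.36 and 6.29 in siControl), and Klf3, a transcriptional repressor, with one 34.4 kb away (5.11 and 5.82 in siChst7 and 8.33 and 9.12 in siControl). Klf9 and Klf10 had 5 regions each, the most among them, and Klf1, Klf8, Klf12, Klf14, Klf16 and Klf17 had none. Of 7 relatives of Egr, Ier and Zfp36 with the Egr corepressors, 2 owned a common region, Ier5 with 1 and Zfp36l2, a paralog of Zfp36, with 3. The Zfp36l2 region 35.0 kb from the gene, the highest of the 3 by fold in every list but siChst7 replicate 1, had folds of 9.15 and 7.38 in siChst7 and 12.2 and 10.6 in siControl. Egr4 had no region, and Nab1 and Nab2, corepressors that bind EGR factors, had none that was common.

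Of 6 genes for serum response factor and its cofactors, Elk3 and Mrtfa owned common regions, 2 and 1 of them, and Srf, Elk1 and Elk4 had no region in any list. The Elk3 region 23.2 kb from the gene, the higher of both by fold in every list but siChst7 replicate 2, had folds of 16.5 and 4.91 in siChst7 and 11.3 and 12.2 in siControl. Of 20 other primary response genes, 11 owned a common region: Btg1, Trib1, Sgk1, Gadd45a, Mcl1, Rhob, Csrnp1, Sik1, Errfi1, Phlda1 and Ccn2. Sgk1, a serum-induced kinase, had 4 common regions and Mcl1, a survival factor of the BCL2 family, had 3. Errfi1, a feedback inhibitor of EGF receptors, had a region 54.2 kb away with folds of 36.6 and 27.1 in siChst7 and 21.5 and 26.9 in siControl. A region 75.3 kb from Phlda1 had 35.9 and 32.2 in siChst7 and 26.6 and 18.3 in siControl. Both regions were above the highest member fold in each of the 4 lists. The median number of common regions per gene was 1 in this list and 0 in the other 3 lists and over all genes. The counts by list take no account of how much genome lies nearest to each gene. That length was 250.9 kb for Sgk1 and 25.2 kb for Mcl1, against a median of 46.4 kb over all genes. The lists were chosen with earlier results of these data known, and differences between them were not tested.

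The genes whose numbers of regions in the 4 lists came closest to those of Klf6 were, by Euclidean distance over the 4 libraries, Arid5b (4.36), Nsmce2 (5.00), Irf2bp2 (5.92), Septin9 (6.08) and Vmp1 (6.86). Irf2bp2 had 19 regions in all like Klf6, with 16 and 9 in siChst7 and 13 and 12 in siControl, in 162.3 kb of genome. Nsmce2 had 5 common regions, as Klf6 did, in 223.5 kb.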

How the data were processed

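Peaks of 4 JUNB CUT&RUN libraries were used, 2 each for siChst7 and siControl. Bowtie2, MACS3 and the build mm10 appear in the submitters' processing notes, without versions or settings. The use of IgG as control is not stated there. Each deposited list gives, per peak, a fold enrichment (a ratio) and the p-value and q-value as −log10, all computed by the authors' peak caller for that library. The peak names carry siRNA, antibody, day and replicate and tied each list to its sample. Read depth per library is unknown; the labels state 30 M reads.

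Peaks were joined by single linkage, and the median summit was given to a gene of the RefSeq table of GRCm38.p6 (21900 protein-coding genes). Coordinates count from 1. Strand came from the RefSeq promoter table, which covers 17492 of these genes; distances from a start site use the outermost start of the gene. The genome nearest to a gene is the length within 100 kb of its ends that lies closer to them than to any other gene. Where a list had 2 peaks in a region, the one with the better q was used for fold and percentile.

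All 9 genes and all of their regions are named or counted; of the related lists, genes with a common region are named, others after their values were seen. The members and lists were chosen with earlier results of these data known. Groups were compared by exact permutation over the 4 libraries. Joining and assignment were tested on simulated peak lists. There the peaks of a planted region shared the same summit and planted regions lay far apart, so chained or split peaks were not tested. Alternatives were windows of 100 bp to both sides of the summit, 50% reciprocal overlap, q at most 0.001, fold of at least 5, equal list length, gene ends within 20 kb, nearest gene body, nearest start site, leaving out each library, a replicate block and a narrower AP-1 motif. The motif search in summit windows was planned for the case that a genome was at hand and was not run. Computation used pandas 2.3.3 and SciPy 1.17.1 with NumPy 2.4.6, under Python 3.11.15, and plots used Matplotlib 3.10.9.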

Additional observations from a re-analysis of the deposited data

How the results depend on the processing

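The number of regions of the 9 genes (31) lay between 20 and 38 in the 12 alternatives, and 20 was reached with gene ends within 20 kb. The number in all lists (7) fell to 3 with 50% reciprocal overlap, to 3 with summits and 100 bp on each side, and to 4 within 20 kb. Genes with such a region (3) numbered 1 with 50% reciprocal overlap, Klf6 alone, and 2 with summit windows. By construction, these settings join less or reach less far. Leaving out 1 library moved the number in all remaining lists to between 7 and 10, siChst7-only regions from 0 to between 0 and 11, and siControl-only regions from 0 to between 0 and 4; by construction, 1 remaining library then stands for its group.

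The difference in peak number (2.5) was −0.5 at equal list length (4735 peaks) and between −5.0 and 10.0 without 1 library. The difference in share (−0.0169 percentage points) lay between −0.046 and 0.0122 without 1 library. With a replicate block the values were 2.5 and −0.0169 (exact sign-flip p = 1.0 for each, smallest possible 0.5); the numbers are not known to pair samples, and within-group differences correlated at −0.032 over 12655 regions. With nearest start sites, genes outside the promoter table could own no region. Of 108 numbers of common regions per gene, 100 stayed within 1.5 times, most of them genes with 0 that stayed at 0. Klf6 fell from 5 to 3 with 50% reciprocal overlap and to 2 with summit windows or within 20 kb. Ier3 fell from 1 to 0 with 50% reciprocal overlap or summit windows, and Zfp36 from 1 to 0 with 50% reciprocal overlap. Without siChst7 replicate 2, Ier3 rose to 2 and Egr2 from 0 to 1. The AP-1 count of 0 was also 0 with a central C or G, by construction, since every match to this narrower form also matches TGANTCA.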
